A study of Mus musculus with 6 samples.

Results

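The elongases and desaturases of long-chain fatty acids were followed here in splenic endothelial cells of Apoe-knockout mice. The set holds 10 genes, chosen by symbol from the 23207 gene symbols of the deposited count table: the elongases Elovl1, Elovl2, Elovl4, Elovl5, Elovl6 and Elovl7, the front-end desaturases Fads1 and Fads2, and the Δ9 desaturases Scd1 and Scd2. The set was drawn up with the lower level of Elovl2 under the MLKL ASO already known, so the values of these genes between the groups are given as a description, with no test, and they support nothing by themselves.

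Fatty acids longer than palmitate are built in the endoplasmic reticulum by a cycle in which an elongase of the ELOVL family performs the first, rate-limiting condensation, adding a pair of carbons from malonyl-CoA. ELOVL1, ELOVL6 and ELOVL7 act mainly on saturated and monounsaturated chains, ELOVL5 and ELOVL2 on polyunsaturated chains, and ELOVL4 makes the longest chains. FADS2 and FADS1 place the extra double bonds that turn the essential dietary fatty acids into arachidonic and eicosapentaenoic acid. Of these, it is eicosapentaenoic acid that ELOVL2 carries on towards docosahexaenoic acid. SCD enzymes convert stearate and palmitate to oleate and palmitoleate. In many tissues Scd1, Fads2 and Elovl6 are targets of SREBP-1c, which is itself induced by the oxysterol receptor LXR.

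Of the 6 mice, 3 (numbers 1603, 1604 and 1607) had been given an antisense oligonucleotide (ASO, a synthetic strand that pairs with an RNA and lowers it) against Mlkl, and 3 (numbers 1601, 1602 and 1608) a control ASO, which the labels give as Mlkl KD and control genotypes. Mlkl encodes the pseudokinase that breaks the plasma membrane in necroptosis. All 6 mice lacked Apoe, the apolipoprotein that clears remnant lipoproteins, and all received their ASO together with a high cholesterol diet for 8 weeks. There was 1 library per mouse, and an ASO given to the animal is not limited to the endothelium. Age, sex and the way the endothelial cells were isolated were not given in the sources used here.

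The promoter of Elovl2 is shown beside that of Elovl5, because these 2 elongases share the polyunsaturated pathway and the results turn on how far apart they lay. Both are taken from RefSeq (build GRCm38.p6), from 250 bases before to 50 bases after the annotated start, with CCAAT boxes (CCAAT, the core letters of NF-Y sites) and GC boxes (GGGCGG, the core letters of Sp1 sites) in capitals on either strand. Elovl2 lies on the minus strand at chr13:41220354-41220653, and Elovl5 on the plus strand at chr9:77917115-77917414.
Elovl2: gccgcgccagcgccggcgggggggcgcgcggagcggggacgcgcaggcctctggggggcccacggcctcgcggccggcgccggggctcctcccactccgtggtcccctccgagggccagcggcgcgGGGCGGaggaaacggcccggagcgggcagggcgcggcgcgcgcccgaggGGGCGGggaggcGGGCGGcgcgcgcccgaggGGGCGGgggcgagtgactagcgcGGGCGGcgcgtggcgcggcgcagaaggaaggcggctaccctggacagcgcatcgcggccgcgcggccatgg
Elovl5: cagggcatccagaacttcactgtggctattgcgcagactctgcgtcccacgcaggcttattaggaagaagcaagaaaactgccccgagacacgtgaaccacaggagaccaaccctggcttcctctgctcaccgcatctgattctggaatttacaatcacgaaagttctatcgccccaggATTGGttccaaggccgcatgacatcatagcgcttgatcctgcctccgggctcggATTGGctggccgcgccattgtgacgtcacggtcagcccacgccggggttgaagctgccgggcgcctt
The Elovl2 window held 5 GC boxes and 0 CCAAT boxes, and the Elovl5 window 0 GC boxes and 2 CCAAT boxes. Of all 32817 promoter windows in the table, 35.6% held a GC box and 37.4% a CCAAT box. The Elovl2 window also held 56 CpG dinucleotides, more than 99.8% of all windows, whose median was 7, and Elovl5 held 20. A second annotated start of Elovl2, at chr13:41220113-41220412, overlaps the printed window and held 45 CpG, 0 GC boxes and 0 CCAAT boxes. In human tissues CpG sites at the ELOVL2 promoter are known for gaining methylation with age, and methylation was not measured here. The sterol regulatory element of the LDL receptor gene, searched by its 10 core letters on both strands, stood in 0 of the 9 windows of the 7 genes of the set that have an entry, against 0.0914% of all windows, which says only that these letters are not there. Fads1, Scd1 and Scd2 had no entry.

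Library totals ranged from 59988846 to 87776706 estimated counts. Values are CPM, counts scaled to a common library total with TMM factors, and are given per mouse or as mean ± SD (n = 3 per group). Mlkl measured 5.70 ± 1.90 CPM in MLKL ASO and 33.3 ± 4.09 CPM in control ASO mice (SD, n = 3 each), and the groups did not overlap. The endothelial markers were present in every library, with Pecam1 at 362 ± 46.1 CPM in MLKL ASO and 331 ± 51.6 CPM in control ASO mice, and Cdh5 at 162 ± 12.5 CPM in MLKL ASO and 166 ± 65.4 CPM in control ASO mice (SD, n = 3 each). RNA of blood cells was present as well: erythroid markers summed to 42338 to 97466 CPM in MLKL ASO mice and 28014 to 80821 CPM in control ASO mice. Control mouse 1608 stood apart from the other mice on the first principal component (30.2% of the variance), at 92.0. On the same axis control mice 1601 and 1602 lay at -4.96 and 16.3. MLKL ASO mice 1603, 1604 and 1607 all lay below the control mice there, at -27.9, -44.25 and -31.2.

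Elovl2 was lower in every MLKL ASO mouse. It measured 8.36, 9.10 and 5.98 CPM in MLKL ASO mice 1603, 1604 and 1607, against 28.0, 25.0 and 32.4 CPM in control ASO mice 1601, 1602 and 1608. The groups lay far apart, since the lowest control mouse was above the highest MLKL ASO mouse by more than either group's own range. These levels rest on 515 to 603 estimated counts per MLKL ASO library and 2075 to 2285 per control ASO library. Means were 7.81 ± 1.63 CPM in MLKL ASO and 28.5 ± 3.71 CPM in control ASO mice (SD, n = 3 each). In edgeR its log2 fold change was -1.87 (SE, the standard error, 0.21), a level 3.65-fold lower, and among all 19745 genes tested 126 (0.638%) had a lower log2 fold change. The authors' deposited table gives a log2 fold change of -1.88 (SE 0.24). With each mouse left out in turn the value ran from -2.00 to -1.71, and without mouse 1608 it was -1.76. In bulk RNA, fewer cells of a type that carries Elovl2 and less Elovl2 RNA per cell cannot be told apart.

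Several markers of other cell types had lower values in the same mice, though edgeR placed 0 of the lymphocyte and dendritic cell markers past its threshold. At an unadjusted p under 0.05 edgeR had 8 of 9 T and NK cell, 3 of 7 dendritic cell, 2 of 7 B cell and 2 of 6 plasma cell markers. DESeq2 placed 5 T and NK cell markers and 0 of the others past an adjusted p of 0.05. Over all genes tested, edgeR had 11.8% at that unadjusted p and 0.0101% past its threshold, and DESeq2 placed 2.81% past its own. Of all genes tested, 51.2% had a log2 fold change below 0. All 9 T and NK cell markers had a log2 fold change below 0, and their summed level was 167 to 224 CPM in MLKL ASO and 234 to 610 CPM in control ASO mice. All 7 dendritic cell markers were below 0 too. Their sums were 281 to 351 CPM in MLKL ASO and 405 to 642 CPM in control ASO mice. Most of these sums came from Ccr7 and Zbtb46. Ccr7 was at 171 ± 34.7 CPM in MLKL ASO and 322 ± 141 CPM in control ASO mice (SD, n = 3 each). Zbtb46 was at 108 ± 1.05 CPM in MLKL ASO and 115 ± 37.6 CPM in control ASO mice (SD, n = 3 each). B cell markers, 7 of 7 below 0, overlapped between the groups at 673 to 1084 CPM in MLKL ASO and 922 to 2115 CPM in control ASO mice. Within the control group the T and NK cell sums of mice 1601, 1602 and 1608 were 610, 333 and 234 CPM, while Elovl2 was highest in mouse 1608, which held the lowest sum. Plasma cell markers, 6 of 6 below 0, overlapped at 1269 to 1506 CPM in MLKL ASO and 1412 to 3135 CPM in control ASO mice. Endothelial markers, all 10 detected, overlapped too, with sums of 3543 to 4103 CPM in MLKL ASO and 2830 to 5245 CPM in control ASO mice. Liver is a known site of high Elovl2 expression, and the hepatocyte markers Apoa1 and Serpina1a together stayed at 0.971 to 1.46 CPM in MLKL ASO and 0.507 to 0.806 CPM in control ASO mice. The part of these cell types in the Elovl2 difference was not tested.

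Elovl5, which elongates polyunsaturated chains of 18 and 20 carbons just upstream of ELOVL2, did not share this pattern. It measured 170.4, 162 and 177 CPM in MLKL ASO mice 1603, 1604 and 1607, against 157, 159 and 259 CPM in control ASO mice 1601, 1602 and 1608. Only mouse 1608 lay above the rest, and the groups overlapped. The log2 fold change was -0.17 (SE 0.20), and 0.11 without mouse 1608. That mouse also held the highest sum of endothelial markers (5245 CPM). Control mice 1601 and 1602, at 157 and 159 CPM of Elovl5, held sums of 2830 and 4067 CPM. The part of endothelial cells in the Elovl5 values was not tested.

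The ratio of Elovl2 to Elovl5 counts within one library does not depend on how libraries are scaled. It was 0.0491, 0.0561 and 0.0338 in MLKL ASO mice 1603, 1604 and 1607, against 0.178, 0.158 and 0.125 in control ASO mice 1601, 1602 and 1608. The highest MLKL ASO ratio was below the lowest control ratio. Means were 0.0463 ± 0.0114 in MLKL ASO and 0.154 ± 0.0268 in control ASO mice (SD, n = 3 each), a ratio 3.32-fold lower, and 2.93-fold to 3.71-fold lower with each mouse left out.

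**Figure D1:**
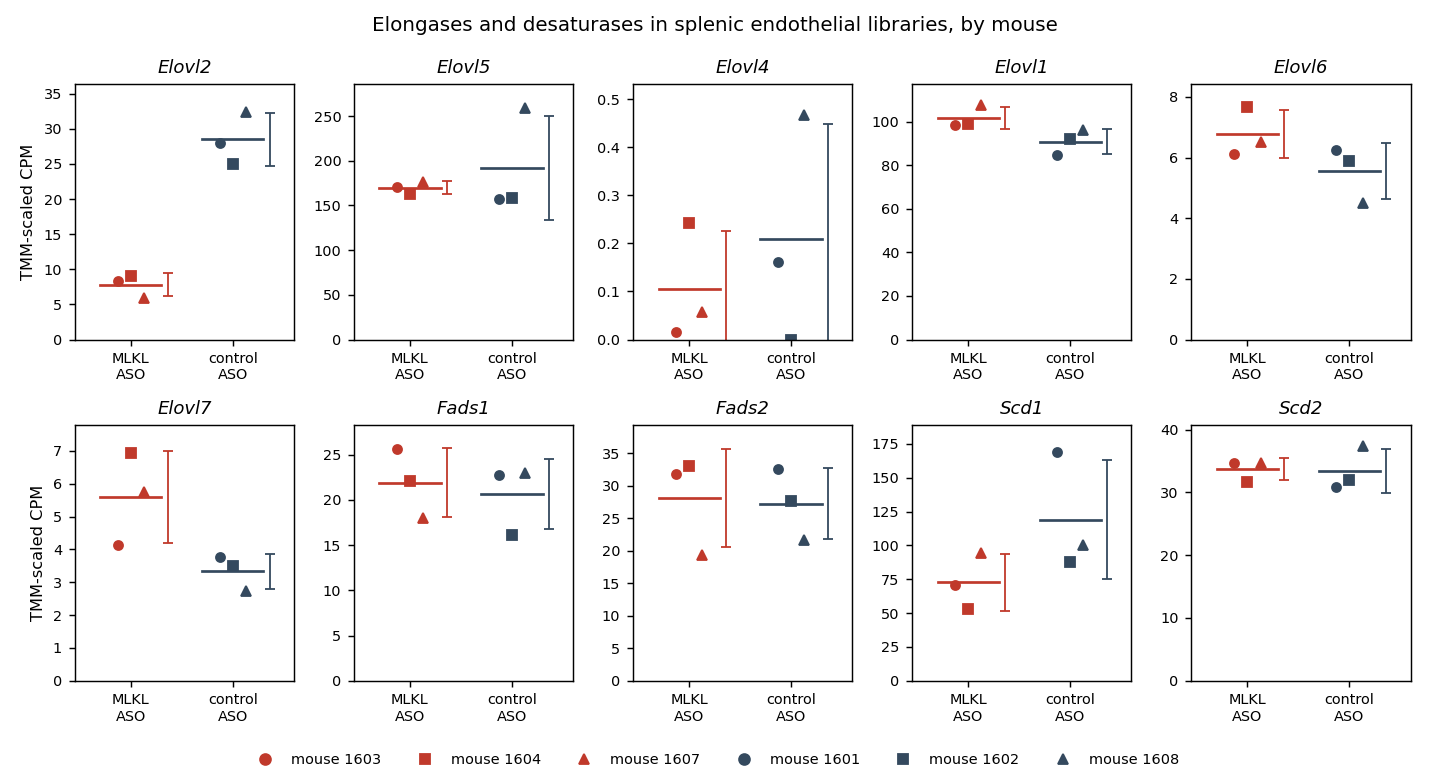
TMM-scaled CPM of the 10 genes in each mouse, on linear axes that start at 0, with MLKL ASO mice in red and control ASO mice in grey; symbols tell the mice of a group apart and do not pair them, lines are means and bars ± SD (n = 3 per group, cut at 0 for Elovl4). Elovl2 is the gene whose groups lie far apart, at 5.98 to 9.10 CPM in MLKL ASO and 25.0 to 32.4 CPM in control ASO mice.

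Elovl4, which makes very long chains in retina, skin, brain and testis, was close to absent. Its estimated counts were 1, 16 and 5 in MLKL ASO mice 1603, 1604 and 1607, against 13, 0 and 33 in control ASO mice 1601, 1602 and 1608. These numbers are too small to order the groups: the log2 fold change of -0.99 had a standard error of 1.38 and was 1.71 in limma-voom and 0.38 without mouse 1608.

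Of the 3 elongases of saturated and monounsaturated chains, Elovl1 and Elovl6 lay closer to the control group than Elovl7. Elovl1, which makes the saturated and monounsaturated very long chains of sphingolipids, measured 98.5, 98.9 and 108 CPM in MLKL ASO mice 1603, 1604 and 1607, against 84.5, 92.0 and 96.0 CPM in control ASO mice 1601, 1602 and 1608. The groups did not overlap but nearly touched, with a log2 fold change of 0.16 (SE 0.11). Elovl6, which takes palmitate to stearate, measured 6.12, 7.65 and 6.53 CPM in MLKL ASO mice 1603, 1604 and 1607, against 6.25, 5.89 and 4.51 CPM in control ASO mice 1601, 1602 and 1608. Here the groups overlapped, and the log2 fold change was 0.29 (SE 0.22), or 0.16 without mouse 1608.

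Elovl7, an elongase of saturated chains, was higher in the MLKL ASO mice. It measured 4.14, 6.93 and 5.74 CPM in MLKL ASO mice 1603, 1604 and 1607, against 3.78, 3.49 and 2.72 CPM in control ASO mice 1601, 1602 and 1608. The groups did not overlap, though mouse 1603 lay close to mouse 1601. Means were 5.60 ± 1.40 CPM in MLKL ASO and 3.33 ± 0.545 CPM in control ASO mice (SD, n = 3 each), a log2 fold change of 0.75 (SE 0.27). It was 0.56 without mouse 1604 and 0.63 without mouse 1608. Mouse 1604, the highest for Elovl7, also held the highest sum of megakaryocyte and platelet markers (2646 CPM), and mouse 1608, the lowest for Elovl7, the lowest sum (59.0 CPM). All 6 of these markers had a log2 fold change above 0, with sums of 1247 to 2646 CPM in MLKL ASO and 59.0 to 1472 CPM in control ASO mice. All 11 cell cycle genes were also above 0, with sums of 1161 to 1639 CPM in MLKL ASO and 609 to 1284 CPM in control ASO mice. Erythroid and neutrophil markers were above 0 in 8 of 8 each. Their sums overlapped between the groups, as did those of the megakaryocyte and platelet markers and of the cell cycle genes. At an unadjusted p under 0.05 edgeR had 6 of the cell cycle genes, 2 erythroid, 0 megakaryocyte and platelet and 0 neutrophil markers. Past an adjusted p of 0.05 edgeR placed 0 of them, and DESeq2 called 3 cell cycle genes and 1 erythroid marker higher. Over all genes tested, 11.8% had that unadjusted p in either direction, and DESeq2 called 1.18% higher. The part of these marker groups in the Elovl7 difference was not tested.

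The front-end desaturases overlapped between the groups. Fads2, the Δ6 desaturase that opens the polyunsaturated pathway, measured 31.8, 33.1 and 19.4 CPM in MLKL ASO mice 1603, 1604 and 1607, against 32.5, 27.7 and 21.6 CPM in control ASO mice 1601, 1602 and 1608. Mice of both groups spanned almost the same range, and the log2 fold change was 0.04 (SE 0.24), with its sign turned (-0.10) without mouse 1608. Fads1, the Δ5 desaturase, measured 25.6, 22.1 and 18.0 CPM in MLKL ASO mice 1603, 1604 and 1607, against 22.7, 16.1 and 23.0 CPM in control ASO mice 1601, 1602 and 1608. Its log2 fold change was 0.09 (SE 0.20), or 0.18 without mouse 1608 and between -0.06 and 0.21 over all mice left out in turn. Fads1 and Fads2 neighbour each other on chromosome 19, and the ratio of their counts within a library was 0.800 ± 0.129 in MLKL ASO and 0.782 ± 0.251 in control ASO mice (SD, n = 3 each).

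The Δ9 desaturases differed from each other. Scd1, the main stearoyl-CoA desaturase of mouse liver and fat, measured 70.5, 53.0 and 94.7 CPM in MLKL ASO mice 1603, 1604 and 1607, against 169, 87.9 and 100.2 CPM in control ASO mice 1601, 1602 and 1608. The groups overlapped, since MLKL ASO mouse 1607 lay above control mouse 1602, and mouse 1601 stood well above all others. The log2 fold change was -0.71 (SE 0.30), and -0.39 without mouse 1601. Scd2, the form that prevails in brain and in newborn mice, measured 34.7, 31.7 and 34.7 CPM in MLKL ASO mice 1603, 1604 and 1607, against 30.9, 32.0 and 37.4 CPM in control ASO mice 1601, 1602 and 1608. Its log2 fold change was 0.01 (SE 0.13), the smallest difference among the 10 genes, and 0.10 without mouse 1608.

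The ratio of Scd1 to Scd2 counts was 2.03, 1.67 and 2.73 in MLKL ASO mice 1603, 1604 and 1607, against 5.48, 2.74 and 2.68 in control ASO mice 1601, 1602 and 1608. The groups met at their edges, and mouse 1601 alone was far above the rest. The ratio was 1.70-fold lower with the MLKL ASO over all mice and 1.27-fold lower without mouse 1601. The Scd genes stand side by side on chromosome 19 and are close copies, so reads that fit more than 1 of them were split by estimation.

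**Figure D2:**
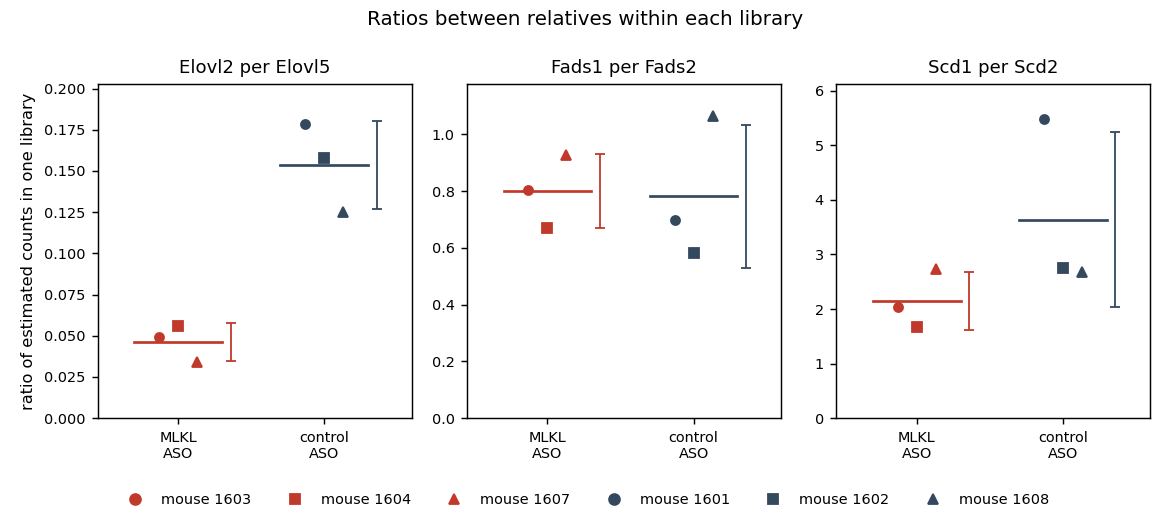
Ratio of the estimated counts of 2 relatives within each library, on linear axes that start at 0, with MLKL ASO mice in red, control ASO mice in grey, lines at the mean and bars ± SD (n = 3 per group). Elovl2 per Elovl5 separates the groups, Fads1 per Fads2 does not, and Scd1 per Scd2 is set apart mainly by mouse 1601 at 5.48.

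Among the 10 genes, 4 had a log2 fold change below 0 (Elovl2, Elovl4, Elovl5 and Scd1), where 51.2% of all genes tested did. The other 6 were above 0. The median was 0.03, against -0.01 over all genes tested. Without mouse 1603, 7 of the 10 were below 0. All 10 passed the filter on low counts. Groups did not overlap in 1 gene with all MLKL ASO mice below (Elovl2) and in 2 with all above (Elovl1 and Elovl7); over all genes tested these shares were 9.71% below and 9.02% above. At a Benjamini-Hochberg adjusted p under 0.05, edgeR's quasi-likelihood test placed 0 of the 10 past the threshold, where it placed 0.0101% of all genes, while 3 of the 10 and 11.8% of all genes had an unadjusted p under 0.05. DESeq2 and limma-voom each placed 1 of the 10 past it, Elovl2, where they placed 2.81% and 0.111% of the genes they tested. As Elovl2 was chosen for its lower level in this comparison, these counts describe the set and are not evidence about it.

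**Figure D3:**
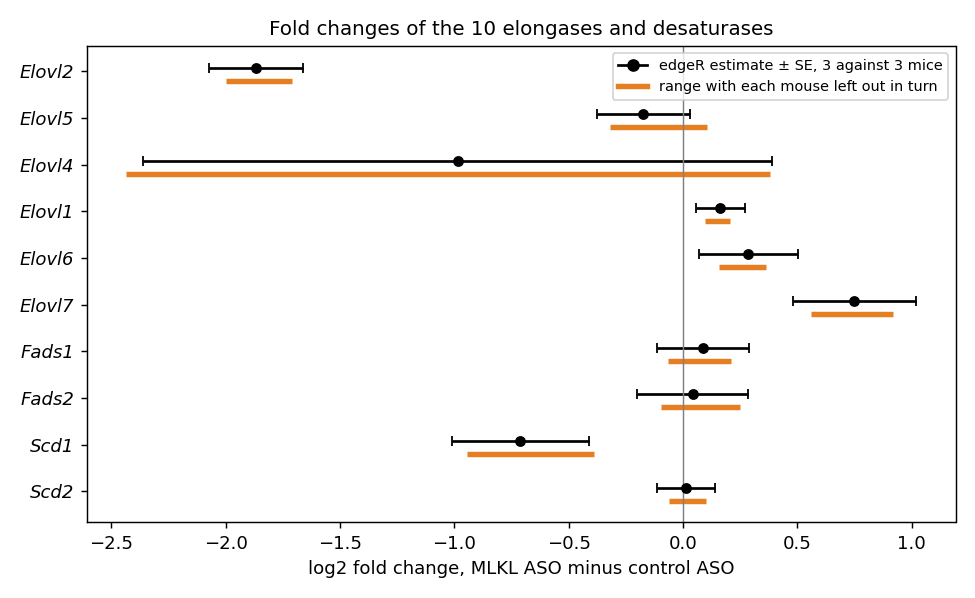
Log2 fold change (MLKL ASO minus control ASO) of the 10 genes, with black points for the edgeR estimate, black bars for ± 1 standard error and orange bars for the range when each mouse is left out in turn. Elovl2 lies at -1.87, Elovl4 has by far the widest error, and the other 8 genes lie between -0.71 and 0.75.

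To compare levels between the genes, CPM was divided by the median length of their protein-coding GENCODE M21 transcripts, which may differ from the transcripts the authors counted. On this scale of CPM per kilobase, Elovl1 (78.5 ± 3.94 in MLKL ASO and 70.2 ± 4.50 in control ASO mice) and Elovl5 (61.0 ± 2.55 in MLKL ASO and 68.9 ± 21.0 in control ASO mice) were the 2 most abundant (SD, n = 3 each). In control mice they did not differ beyond their spread, and with the longest transcript as the length Elovl5 came first. Scd1 followed, at 15.0 ± 4.33 in MLKL ASO and 24.6 ± 9.07 in control ASO mice (SD, n = 3 each). Fads2 came next, at 8.92 ± 2.39 in MLKL ASO and 8.66 ± 1.73 in control ASO mice (SD, n = 3 each). Fads1, at 6.48 ± 1.12 in MLKL ASO and 6.10 ± 1.15 in control ASO mice, and Scd2, at 6.18 ± 0.321 in MLKL ASO and 6.13 ± 0.637 in control ASO mice, did not differ from each other beyond their spread (SD, n = 3 each). Fads2 overlapped both in MLKL ASO mice, while in control ASO mice its lowest value (6.86) lay just above the highest of Scd2 (6.85) and of Fads1 (6.81). Elovl2 had 2.05 ± 0.428 CPM per kilobase in MLKL ASO mice, the 8th level of the 10 and below these 3 desaturases, against 7.46 ± 0.972 in control ASO mice, the 5th level and among them (SD, n = 3 each). Elovl6 had 2.59 ± 0.304 CPM per kilobase in MLKL ASO mice, where it did not differ from Elovl2 beyond their spread, and 2.13 ± 0.351 in control ASO mice, where Elovl2 was above it (SD, n = 3 each). Elovl7, at 1.40 ± 0.349 in MLKL ASO and 0.830 ± 0.136 in control ASO mice (SD, n = 3 each), and Elovl4 were the lowest 2. With the longest transcript as the length, Elovl6 lay below both Elovl2 and Elovl7 in MLKL ASO mice, at 1.14 against 2.03 and 1.40 CPM per kilobase, so the order of these 3 there depends on the transcript.

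The genes whose levels ran most like Elovl2 over the 6 libraries were Man2c1, Uckl1, Clec4g, Btbd6 and Plekha1, with Pearson correlations of log2 CPM of 0.998, 0.996, 0.994, 0.993 and 0.992, the highest among 14468 genes with a mean of at least 1 CPM. The 6 libraries include the group difference, so genes that separate the groups evenly come first, and the likeness is a description only. Clec4g, a C-type lectin of sinusoidal endothelium, measured 207, 195 and 155 CPM in MLKL ASO mice 1603, 1604 and 1607, against 387, 366 and 465 CPM in control ASO mice 1601, 1602 and 1608. Like Elovl2 it was lowest in mouse 1607 and highest in mouse 1608, with a log2 fold change of -1.13 (SE 0.15). The other 4, among them Man2c1, a cytosolic mannosidase, had log2 fold changes of -0.67 to -0.31, smaller than that of Elovl2. Within the set the correlation with Elovl2 ran from -0.82 (Elovl7) to 0.58 (Scd1), over the same 6 libraries. Of the 10 endothelial markers, 6 had a log2 fold change below 0 and 4 above, where 51.2% of all genes tested were below. Among these markers Tie1 was at -0.52 (SE 0.32), Stab2 at -0.17 (SE 0.23) and Emcn at 0.45 (SE 0.15). Only in Emcn did the groups not overlap, where 9.02% of all genes tested had all MLKL ASO mice above. The authors' deposited table has Stab2 with the other sign, at 0.16 (SE 0.22). The part of sinusoidal cells in the Clec4g and Elovl2 values was not tested.

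The gene next to Elovl2 on chromosome 13 that could be tested, Smim13, named here outside the rule for named genes, had a log2 fold change of -0.02 (SE 0.21).

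Further genes of the pathway came from 8 lists of textbook roles that hold none of the 10. They name 78 genes, of which 76 were in the table and 72 were tested. In edgeR 0 of the 72 were higher and 0 lower past an adjusted p of 0.05 (background 0.00506% in each direction). The smallest edgeR adjusted p among the 72 was 0.313. This threshold also left out Mlkl, the target of the ASO (edgeR adjusted p = 0.0655), so these zeros do not show that the genes were unchanged. At an unadjusted p under 0.05 in edgeR, 4 were higher and 8 lower, where 11.8% of all genes tested passed in either direction. DESeq2 placed 1 as higher, Hacd1, and 1 as lower, Srebf1, where it called 1.18% of all genes higher and 1.63% lower, and limma-voom placed 0. The median log2 fold change of the 72 was -0.02, against -0.01 over all genes tested. Groups did not overlap in 6 of the 72 with all MLKL ASO mice above and in 8 with all below. Over all genes tested these shares were 9.02% above and 9.71% below, and the genes named next were picked from those that separate.

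Srebf1, which encodes SREBP-1, the driver of fatty acid synthesis and desaturation genes, measured 14.4, 11.3 and 9.53 CPM in MLKL ASO mice 1603, 1604 and 1607, against 26.0, 17.7 and 20.7 CPM in control ASO mice 1601, 1602 and 1608. The groups did not overlap, with a log2 fold change of -0.87 (SE 0.22, edgeR adjusted p = 0.313, DESeq2 adjusted p = 0.0186). For Srebf1 the authors' deposited table gives a weaker log2 fold change of -0.66 (SE 0.27). Control mouse 1601, the highest for Srebf1 and for Scd1, also held the highest sums of B cell (2115 CPM), plasma cell (3135 CPM), T and NK cell (610 CPM), dendritic cell (642 CPM) and macrophage (1180 CPM) markers of the 6 mice. The part of these cells in the Srebf1 and Scd1 values was not tested. Without each mouse in turn, the log2 fold change of Srebf1 ran from -1.05 to -0.73. Srebf2, the regulator of cholesterol synthesis, also separated the groups, at 23.4 ± 2.29 CPM in MLKL ASO and 32.7 ± 7.32 CPM in control ASO mice (SD, n = 3 each; edgeR adjusted p = 0.388). Its log2 fold change of -0.48 was -0.32 without control mouse 1601. Of the 15 tested SREBP, LXR, ChREBP and PPAR regulators, 12 had a log2 fold change below 0, where 51.2% of all genes tested did. Their median was -0.20, and -0.07 without mouse 1608. Groups did not overlap in 2 of the 15, Srebf1 and Srebf2, where 9.71% of all genes tested had all MLKL ASO mice below.

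The partners of the elongases act after the condensation step: HSD17B12 reduces the new ketone, the HACD enzymes remove water and TECR completes the cycle. Hacd1, the dehydratase best known from muscle, measured 18.9, 22.4 and 18.1 CPM in MLKL ASO mice 1603, 1604 and 1607, against 12.8, 13.7 and 9.63 CPM in control ASO mice 1601, 1602 and 1608. All MLKL ASO mice were above all control mice, with a log2 fold change of 0.72 (SE 0.19; edgeR adjusted p = 0.323, DESeq2 adjusted p = 0.0215). Without mouse 1608 it was 0.58. Hacd4 was at 21.8 ± 1.70 CPM in MLKL ASO and 13.6 ± 3.87 CPM in control ASO mice (SD, n = 3 each; edgeR adjusted p = 0.361), with a log2 fold change of 0.68 that was 0.49 without mouse 1608. The remaining tested partners, Hsd17b12, Hacd2, Hacd3 and Tecr, had log2 fold changes between -0.11 and 0.14.

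Genes that feed the pathway lay close to 0 as a group. Of 11 fatty acid synthesis genes 4 were below 0 and 7 above, with a median log2 fold change of 0.04. Slc25a1, the mitochondrial citrate carrier, measured 29.8 ± 3.07 CPM in MLKL ASO and 36.2 ± 1.86 CPM in control ASO mice (SD, n = 3 each; edgeR adjusted p = 0.441), and Acaca, the carboxylase that makes malonyl-CoA, 6.01 ± 0.173 CPM in MLKL ASO and 7.25 ± 1.09 CPM in control ASO mice (SD, n = 3 each; edgeR adjusted p = 0.619). The 5 tested electron donors of the desaturases had a median of -0.06.

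Downstream genes showed no common direction either. Among 15 genes that activate or esterify polyunsaturated chains, with a median log2 fold change of 0.13, Acsl3, an acyl-CoA synthetase of lipid droplets, was at 21.0 ± 4.52 CPM in MLKL ASO and 33.2 ± 5.93 CPM in control ASO mice (SD, n = 3 each; edgeR adjusted p = 0.352). Acsl5, another acyl-CoA synthetase, was at 229 ± 11.9 CPM in MLKL ASO and 189.6 ± 16.6 CPM in control ASO mice (SD, n = 3 each; edgeR adjusted p = 0.408). In peroxisomal β-oxidation, which shortens the last intermediate to docosahexaenoic acid, the median over 9 tested genes was -0.06, and -0.18 without mouse 1608. Acaa1a, the thiolase of this route, was at 75.8 ± 2.84 CPM in MLKL ASO and 92.5 ± 7.94 CPM in control ASO mice (SD, n = 3 each; edgeR adjusted p = 0.393).

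The ceramide synthases, which join very long chains to sphingoid bases, had a median of -0.06 over 6 genes, and 0.05 without mouse 1608. Cers1 was at 0.219 ± 0.102 CPM in MLKL ASO and 0.836 ± 0.311 CPM in control ASO mice (SD, n = 3 each; edgeR adjusted p = 0.332), and Cers3 at 0.521 ± 0.149 CPM in MLKL ASO and 0.217 ± 0.113 CPM in control ASO mice (SD, n = 3 each; edgeR adjusted p = 0.427), both at low levels. Of the relatives outside the 10 genes, Elovl3 and Scd3 stood at 11 counts or fewer in each library and were not tested. The other relatives tested, Fads3, Fads6, Scd4, Degs1 and Degs2, overlapped between the groups, with log2 fold changes from -0.57 to 0.24.

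**Figure D4:**
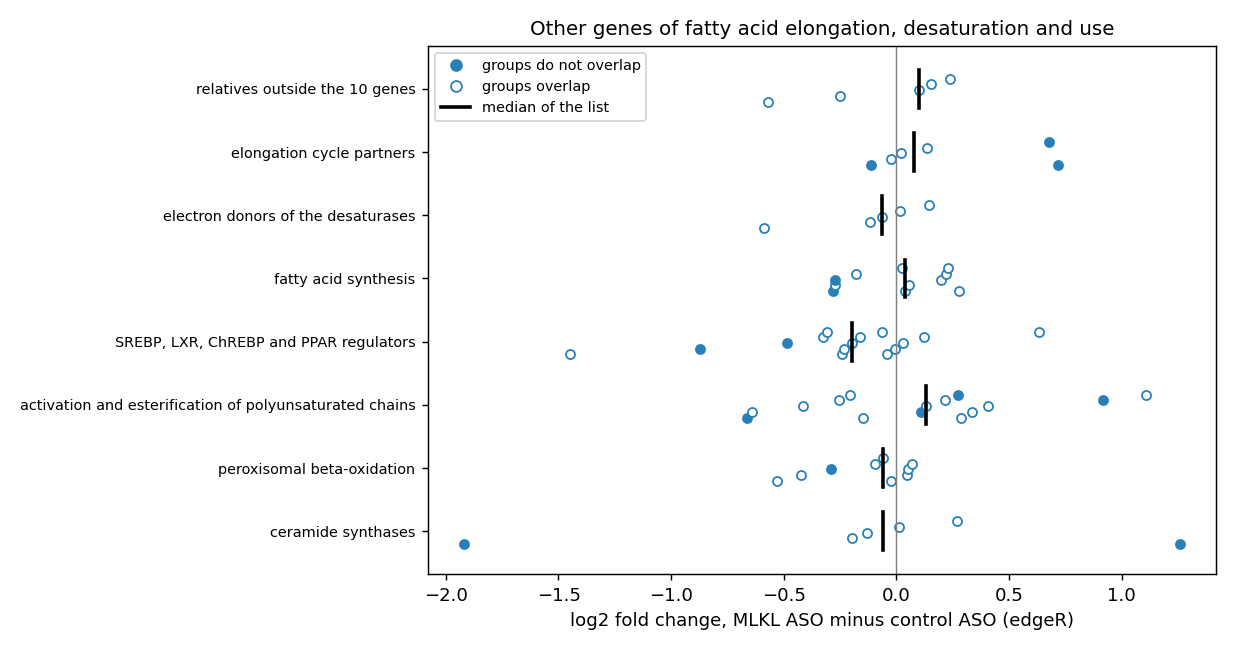
Log2 fold change (MLKL ASO minus control ASO, edgeR) of the 72 tested genes in 8 lists of the pathway, with filled points where the groups do not overlap, open points where they do, and black bars at each list's median. List medians lie between -0.20 and 0.13, and 0 of the points pass an adjusted p of 0.05 in edgeR.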

How the data were processed

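Per the labels' protocols, RNA of splenic endothelial cells came from a Direct-zol extraction and went into a strand-specific mRNA library kit. Per the submitters' processing notes, fastp 0.20.1, Salmon 1.3.0 and DESeq2 were used; build and annotation were not given in the sources used here. The authors deposited estimated counts per gene symbol, of which 69.3% are not whole numbers. They also deposited a DESeq2 table with, per the file headers, a mean normalised signal, log2 fold changes with standard errors, a Wald score and p-values. The log2 fold changes of that deposited table correlated at a Pearson r of 0.977 across 19728 genes with those computed here as MLKL ASO minus control ASO, which set its direction.

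Rounded estimated counts were tested in edgeR 4.0.16 under R 4.3.3 (default expression filter, 19745 genes kept, TMM scaling, quasi-likelihood test, two-sided, Benjamini-Hochberg adjustment over all genes, threshold 0.05). Standard errors are the log2 fold change over the root of the F statistic. DESeq2 1.42.0, limma-voom 3.58.1 with sample weights, other scalings and filters, robust estimation and the loss of each mouse were alternatives. The fits were tested on simulated data. With 3 mice against 3 the smallest two-sided exact permutation p is 0.1.

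The 10 genes and all lists were chosen with earlier results of these data known. The text names all 10, Mlkl, Pecam1 and Cdh5 as checks, from each pathway list the genes past the threshold and up to 2 with the smallest p among those whose groups do not overlap, and the 5 genes most like Elovl2. Others are named as list members only.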

Additional observations from a re-analysis of the deposited data

How the results depend on the processing

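No paired analysis was possible because mouse numbers do not recur between the groups. The log2 fold change of Elovl2 stayed between -2.00 and -1.71 in all 14 alternatives. Past the threshold, 1 gene was higher and 1 lower of all tested; this was 2 and 2 with upper quartile scaling, 5 and 4 with plain library totals, 219 and 302 in DESeq2, 9 and 13 in limma-voom, and 0 to 10 and 0 to 9 with a mouse left out. DESeq2 called 2 pathway genes, and the other alternatives 0. The number of the 10 genes below 0, 4 with all mice, ran from 3 to 7 with a mouse left out, the 7 without mouse 1603. Smim13, at -0.02, ran from -0.18 to 0.18 with a mouse left out and changed sign without mouse 1607 (0.0024) and without mouse 1602 (0.18); the cause was not tested. The count ratios and their values without each mouse were added after seeing the data. Elovl4, at 33 counts or fewer per library, is limited by depth, and the other 9 genes had at least 192 counts in each library.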
